A study of Mus musculus with 6 samples.

Results

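The transcripts described here encode the sensors of the unfolded protein response, the kinases that phosphorylate the translation factor eIF2α, and the subunits that direct its dephosphorylation. They were chosen by name and comprise 10 of the 53465 genes in the count tables: Ern1, Atf6, Atf6b, Xbp1, Eif2ak1, Eif2ak2, Eif2ak3, Eif2ak4, Ppp1r15a and Ppp1r15b. They were counted in mouse embryonic stem cells of the established line Royan B20, grown on 0.1% gelatin after 7 passages. In 3 libraries the cells had received 250 nM noggin, an extracellular BMP antagonist, plus 5 µM dorsomorphin, a small molecule that blocks BMP type I receptors. These are called BMP-inhibited (R2i_BMPi in the labels). The other 3 libraries came from R2i controls without those agents (R2i_control). Both groups shared LIF and the R2i medium, which holds 1 µM of the MEK inhibitor written PD0329501 and 10 µM SB431542, an inhibitor of TGF-beta-type receptors. All cells thus came from a single line with MEK and TGF-beta receptors already inhibited. The labels give no treatment time, and noggin and dorsomorphin were not given separately in these libraries. The name BMP-inhibited stands for both agents together. Any effect of either agent outside BMP signalling cannot be told apart here from BMP inhibition.

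The unfolded protein response is set off when unfolded proteins gather in the endoplasmic reticulum. IRE1α, encoded by Ern1, cuts a short intron out of the Xbp1 mRNA in the cytoplasm, and the spliced mRNA yields an active transcription factor. ATF6 and its relative ATF6β, encoded by Atf6b, travel to the Golgi and are cut there to release transcription factors. PERK, encoded by Eif2ak3, phosphorylates eIF2α, as do HRI (Eif2ak1), PKR (Eif2ak2) and GCN2 (Eif2ak4). Phosphorylated eIF2α slows most translation and favours that of ATF4. GADD34 (Ppp1r15a) and CReP (Ppp1r15b) bring protein phosphatase 1 to eIF2α and reverse the mark. Much of this control acts on proteins or on splicing, and gene counts see neither.

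The Xbp1 intron shows what a gene count cannot resolve. A search of the annotated Xbp1 transcripts for the paired cleavage pattern of IRE1 found it at chr11:5524279-5524304 on GRCm38, plus strand, in exon 4 of the coding transcript ENSMUST00000063084. In the line below the 26 intron bases are in capitals, with 15 exon bases on either side.
Xbp1 site: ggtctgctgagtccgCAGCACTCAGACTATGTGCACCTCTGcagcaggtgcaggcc
With these bases present, the reading frame of that transcript runs for 267 codons, and with them removed for 371. A read from either form adds to the same Xbp1 count, so the values below give total Xbp1 mRNA. The same pattern also occurred once in exon 1, where removal would leave 73 codons.

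Promoters from RefSeq on GRCm38.p6 were available for 8 of the 10 genes, Atf6 and Ppp1r15b being the exceptions. They were searched on both strands for the endoplasmic reticulum stress element ERSE (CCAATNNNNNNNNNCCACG), ERSE-II (ATTGG, any base, CCACG), the core of an ATF6 site (TGACGTG), the cyclic AMP response element (TGACGTCA), the C/EBP-ATF element read by ATF4 (TGATGNAAN) and an interferon element core (GAAA, any 2 bases, GAAA). ERSE and ERSE-II share the same boxes in different spacing, with the CCAAT box of ERSE-II on the opposite strand (read as ATTGG). Matches occurred in Ppp1r15a and Eif2ak2 alone, and these promoters are shown from 250 bases before the annotated start to 30 bases from it, with matches in capitals. That of Ppp1r15a lies at chr7:45526239-45526518 and that of Eif2ak2 at chr17:78882543-78882822, both on the minus strand.
Ppp1r15a promoter: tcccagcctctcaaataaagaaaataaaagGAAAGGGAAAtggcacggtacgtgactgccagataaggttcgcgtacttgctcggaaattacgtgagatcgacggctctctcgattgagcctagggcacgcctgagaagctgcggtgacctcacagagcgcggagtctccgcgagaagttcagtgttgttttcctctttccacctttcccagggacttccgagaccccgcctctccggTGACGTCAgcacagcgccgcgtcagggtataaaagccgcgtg
Eif2ak2 promoter: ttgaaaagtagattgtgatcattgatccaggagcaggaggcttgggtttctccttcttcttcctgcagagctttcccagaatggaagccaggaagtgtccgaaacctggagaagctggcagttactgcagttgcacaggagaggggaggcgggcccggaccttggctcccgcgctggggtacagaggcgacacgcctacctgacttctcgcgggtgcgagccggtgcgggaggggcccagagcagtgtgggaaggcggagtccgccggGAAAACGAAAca
The cyclic AMP response element of Ppp1r15a, at -12 to -5, is a motif found in 1.79% of the 32851 promoters in the table. The interferon core, at 19 to 28 of Eif2ak2 and -220 to -211 of Ppp1r15a, is found in 3.44%. A match is a string of letters and no evidence of binding.

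Of the 10 genes, 3 rose in BMP-inhibited cells (Ern1, Eif2ak1 and Eif2ak3), 4 fell (Xbp1, Atf6b, Eif2ak4 and Ppp1r15a) and 3 did not pass the test (Atf6, Eif2ak2 and Ppp1r15b). A gene was called at an adjusted p under 0.05 in edgeR's quasi-likelihood test, adjusted over 15951 tested genes, and all 10 genes passed the count filter. Levels are TMM-scaled CPM, the usual depth-scaled read count. All genes tested were called in 64.2% of cases, with 32.5% called higher and 31.7% lower. Among genes with a mean level inside the range of these 10, 70.9% were called, so 7 of 10 is close to the background. The groups did not overlap for those 7 genes, against 68.6% of all genes tested. The changes were small: the median absolute log2 fold change was 0.35 for the 10 genes and 0.37 for all genes tested, and none of the 10 changed 2-fold. In bulk RNA, fewer cells expressing a gene and less RNA per cell cannot be told apart. The labels call the 3 replicates of a group biological but name no separate cultures, so p-values measure the spread between these libraries. The test estimates that spread for each gene partly from the other genes.

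**Figure D1:**
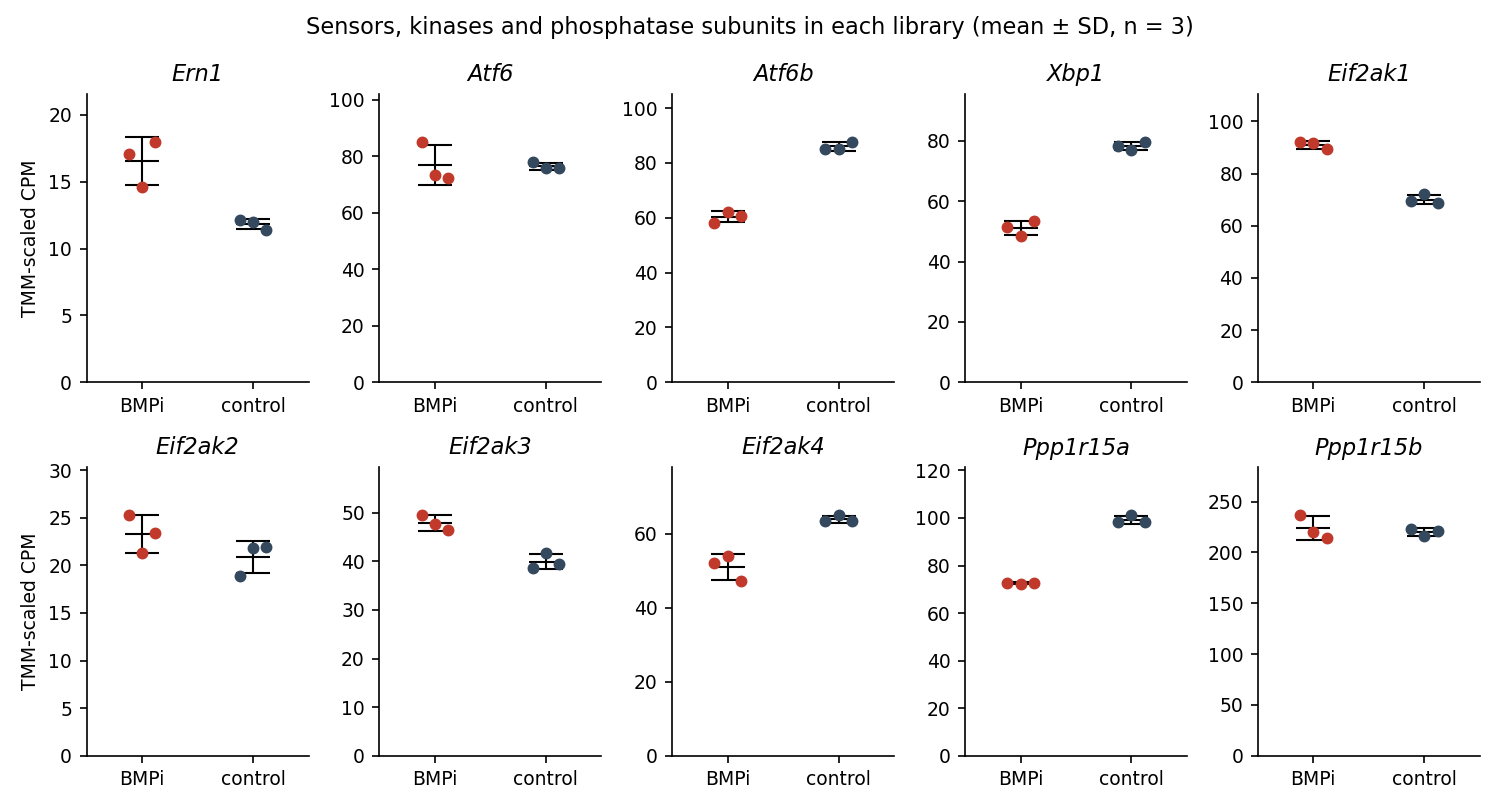
Level of each gene in every library, in CPM scaled by TMM (y axes from 0), BMP-inhibited libraries in red and controls in dark blue, with mean ± SD (n = 3). The groups separate for Ern1, Atf6b, Xbp1, Eif2ak1, Eif2ak3, Eif2ak4 and Ppp1r15a and overlap for Atf6, Eif2ak2 and Ppp1r15b.

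The sensor IRE1α and its substrate changed in opposite directions at the mRNA level. Ern1 (ENSMUSG00000020715, chr11:106394650-106487852, minus strand) had 17.1, 14.6 and 18.0 CPM in BMP-inhibited libraries, against 12.1, 11.97 and 11.4 CPM in controls. Each BMP-inhibited library exceeded every control library, and replicate 2 was the lowest of its group. Ern1 rose by 39.7% (adjusted p = 0.000341), or 0.48 in log2 (SE 0.09). Xbp1 (ENSMUSG00000020484, chr11:5520659-5525893, plus strand) had 51.4, 48.6 and 53.4 CPM in BMP-inhibited libraries, against 78.2, 77.1 and 79.8 CPM in controls. The gap between the groups was far wider than the spread within either. Xbp1 fell by 34.7% (adjusted p = 6.03e-08), at -0.62 in log2 (SE 0.05), the largest absolute change among the 10 genes. Across all genes tested, 30.9% had a larger absolute change.

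Of the ATF6 paralogs, Atf6b fell and Atf6 did not pass. Atf6 (ENSMUSG00000026663, chr1:170704674-170867771, minus strand) had 85.2, 73.5 and 72.2 CPM in BMP-inhibited libraries, against 77.9, 75.8 and 75.7 CPM in controls. BMP-inhibited replicate 1 lay above all controls and the other replicates of its group below them. The log2 fold change of 0.01 had a 95% interval of -0.12 to 0.14 (adjusted p = 0.902), and its sign changed with the scaling. Atf6b (ENSMUSG00000015461, chr17:34647146-34655074, plus strand) had 58.1, 62.2 and 60.7 CPM in BMP-inhibited libraries, against 85.3, 84.96 and 87.8 CPM in controls. All BMP-inhibited libraries lay below all controls, and Atf6b fell by 29.8% (log2 fold change -0.51, SE 0.05, adjusted p = 2.24e-07). Within a library the log2 ratio of Atf6 to Atf6b per kb of exon, which needs no scaling between libraries, averaged -1.395 ± 0.18 in BMP-inhibited cells and -1.91 ± 0.04 in controls (SD, n = 3 each). Its exact two-sided permutation p was 0.1, the smallest that 3 against 3 libraries can give (adjusted over 7 such measures, 0.117). The log2 ratio of Xbp1 to Atf6 was 0.92 ± 0.15 in BMP-inhibited cells and 1.54 ± 0.04 in controls, with the same exact permutation p of 0.1.

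Partners of IRE1 and ATF6 moved both ways. The list held relatives of ATF6, the proteases that cut it, the tRNA ligase complex that rejoins Xbp1 mRNA, and signalling partners of IRE1. Of 16 tested among 17, 4 rose and 7 fell, with a median log2 fold change of -0.15 beside -0.00 for all genes tested. Calls in either direction made up 64.2% of all genes tested, so the number called here is near the background. Creb3l2, an ATF6-like membrane-bound factor, had 12.5 ± 1.37 CPM in BMP-inhibited cells and 23.9 ± 0.789 CPM in controls (SD, n = 3 each; log2 fold change -0.93, SE 0.09). Mbtps1, the site-1 protease that cuts ATF6, had 354 ± 22.8 CPM in BMP-inhibited cells and 253 ± 1.47 CPM in controls, rising by 0.48 in log2 (SE 0.05). Map3k5, which encodes the stress kinase ASK1 that acts below IRE1, had a log2 fold change of -0.79 (SE 0.10), and Fam98b, of the ligase complex, -0.29 (SE 0.05). Rtcb, the catalytic subunit of that complex, rose by 0.19 in log2 (SE 0.04). Ern2, the gut-type paralog of Ern1, did not pass the count filter, at 0.0209 CPM in BMP-inhibited cells and 0 counts in controls. Without control replicate 2 or control replicate 3, only 2 partners were called higher.

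Reported substrates of IRE1-dependent RNA decay, drawn from work in several cell types, gave no common direction. Of 6 tested among 7, 2 rose and 1 fell, with a median log2 fold change of 0.20. By comparison, 64.2% of all genes tested were called in either direction. The matrix protein gene Sparc rose by 0.37 in log2 (SE 0.04). The myelin gene Pmp22 rose by 1.54 in log2 (SE 0.32), at 1.41 ± 0.202 CPM in BMP-inhibited cells and 0.487 ± 0.158 CPM in controls. Hgsnat, a lysosomal enzyme gene, had a log2 fold change of -0.24 (SE 0.06). Bloc1s1, the substrate used most often, had 1.92 ± 0.398 CPM in BMP-inhibited cells and 1.87 ± 0.105 CPM in controls and shares exon bases with Rdh5 on the same strand, so its count is uncertain; it did not pass (log2 fold change 0.04, SE 0.22). Pdgfrb, highest in BMP-inhibited replicate 2, did not pass (adjusted p = 0.067) at 1.29 in log2 (SE 0.59). Without control replicate 2 or BMP-inhibited replicate 2, 2 substrates were called lower. With the stricter count filter 1 was called higher.

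**Figure D2:**
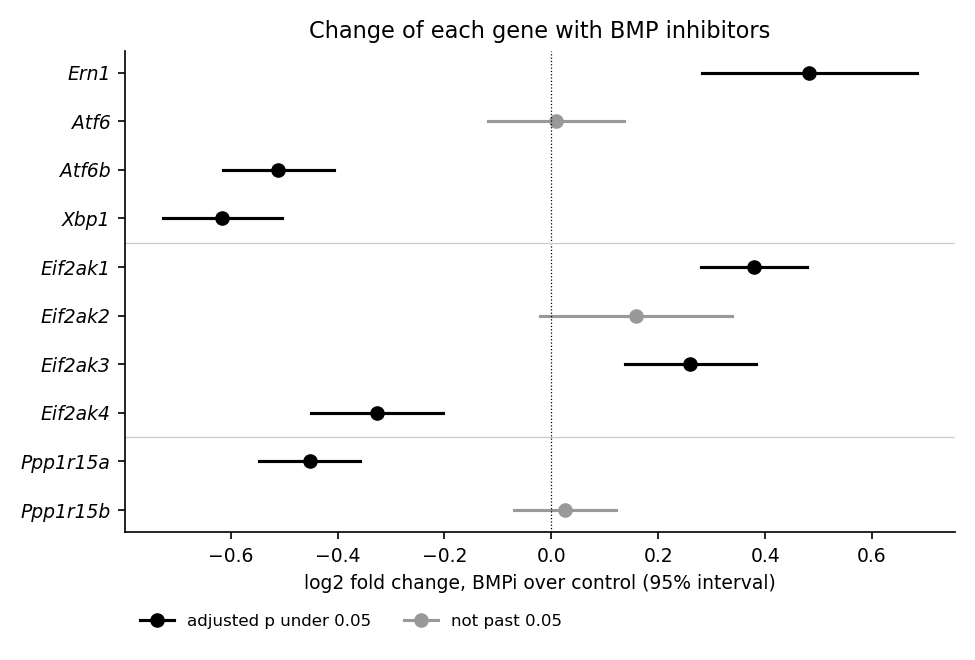
Log2 fold change of each gene, BMP-inhibited over control, with its 95% interval; black marks an adjusted p under 0.05 and grey the others. Horizontal lines part the sensors and Xbp1, the eIF2α kinases and the phosphatase subunits. Values run from -0.62 (Xbp1) to 0.48 (Ern1) among the sensors and Xbp1, from -0.33 (Eif2ak4) to 0.38 (Eif2ak1) among the kinases, and stand at -0.45 (Ppp1r15a) and 0.02 (Ppp1r15b) for the phosphatase subunits.

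Among the kinases, those for heme shortage and endoplasmic reticulum stress rose, the amino acid sensor fell, and the RNA sensor did not pass. Eif2ak1 (ENSMUSG00000029613, chr5:143817788-143904251, plus strand) encodes HRI, which responds to low heme and relays mitochondrial stress. It had 92.2, 91.6 and 89.3 CPM in BMP-inhibited libraries, against 69.3, 72.1 and 68.6 CPM in controls. The groups were well apart, and Eif2ak1 rose by 30.03% (log2 fold change 0.38, SE 0.05, adjusted p = 3.50e-06). Eif2ak3 (ENSMUSG00000031668, chr6:70844515-70905245, plus strand), the gene for PERK, had 49.5, 47.7 and 46.4 CPM in BMP-inhibited libraries, against 38.7, 41.7 and 39.4 CPM in controls. Every BMP-inhibited library lay above every control, a rise of 19.8% (log2 fold change 0.26, SE 0.06, adjusted p = 0.000969).

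Eif2ak4 (ENSMUSG00000005102, chr2:118388618-118475234, plus strand) encodes GCN2, which is activated when uncharged tRNAs build up. It had 51.96, 54.0 and 47.1 CPM in BMP-inhibited libraries, against 63.5, 64.99 and 63.3 CPM in controls. Controls were tightly grouped above all BMP-inhibited libraries, and Eif2ak4 fell by 20.2% (log2 fold change -0.33, SE 0.06, adjusted p = 0.000139). Eif2ak2 (ENSMUSG00000024079, chr17:78852564-78882573, minus strand) encodes PKR, which binds double-stranded RNA. It had 25.3, 21.3 and 23.4 CPM in BMP-inhibited libraries, against 18.9, 21.8 and 21.95 CPM in controls. The groups overlapped through BMP-inhibited replicate 2, and the log2 fold change of 0.16 did not pass (95% interval -0.02 to 0.34, adjusted p = 0.114). Without BMP-inhibited replicate 2, the lowest of its group, it was 0.22 and passed (adjusted p = 0.0211).

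Eif2ak1 and Eif2ak4 moved in opposite directions, and the shares of 3 of the 4 kinase transcripts did not overlap between the groups. By level, the groups did not overlap for 68.6% of all genes tested. The 4 shares are parts of a common sum and so are not independent: when any share rises, the others together must fall. In counts per kb of exon, the 4 kinases summed to 35.4 ± 1.036 CPM per kb in BMP-inhibited cells and 31.6 ± 0.897 CPM per kb in controls (SD, n = 3 each). Eif2ak1 made up 44.7%, 45.5% and 45.9% of this sum in BMP-inhibited libraries, against 39.6%, 39.0% and 38.5% in controls. Eif2ak4 made up 19.1%, 20.4% and 18.4% in BMP-inhibited libraries, against 27.6%, 26.7% and 27.0% in controls. For both kinases the groups were far apart relative to their spread. The share of Eif2ak3 was 22.4 ± 0.133% in BMP-inhibited cells and 20.96 ± 0.237% in controls, again without overlap. For each of these shares the exact permutation p was 0.1, the smallest possible here. The share of Eif2ak2 was 12.9 ± 0.997% in BMP-inhibited cells and 12.9 ± 0.846% in controls (exact permutation p = 0.9).

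**Figure D3:**
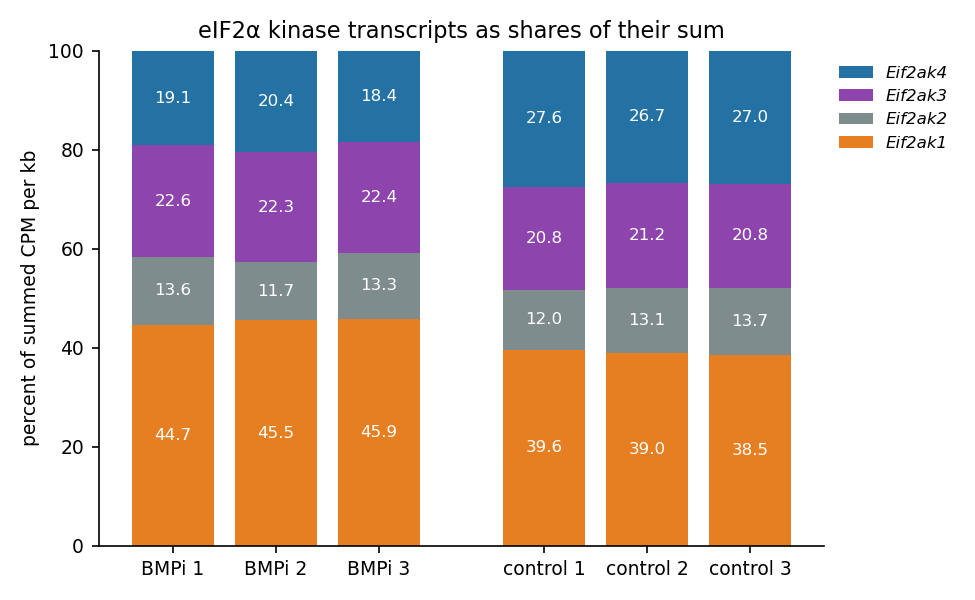
Share of each kinase transcript in the summed level of the 4 eIF2α kinases, in percent of CPM per kb of exon, for each library. Eif2ak1 takes 44.7% to 45.9% in BMP-inhibited libraries and 38.5% to 39.6% in controls, and Eif2ak4 takes 18.4% to 20.4% in BMP-inhibited libraries and 26.7% to 27.6% in controls.

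Of 8 genes that regulate these kinases, 4 fell, 1 rose and 3 did not pass, with a median log2 fold change of -0.21. Of all genes tested, 64.2% were called, so the number called here is close to the background. Dnajc3, which encodes p58IPK, an inhibitor of PKR and PERK, had 64.9, 60.7 and 58.8 CPM in BMP-inhibited libraries, against 178, 177 and 175 CPM in controls (adjusted p = 9.50e-13), or -1.52 in log2 (SE 0.05). It is also a target of the response. Oma1, the mitochondrial protease that starts the signal to HRI, had 13.3 ± 1.48 CPM in BMP-inhibited cells and 24.4 ± 0.796 CPM in controls, a log2 fold change of -0.88 (SE 0.09), and Dele1, which carries that signal, -0.24 (SE 0.05). Impact, whose product keeps GCN2 from its activator GCN1, had a log2 fold change of -0.50 (SE 0.04). Tarbp2, encoding a PKR-inhibiting RNA-binding protein, rose by 0.45 in log2 (SE 0.06). Without BMP-inhibited replicate 2, 2 regulators were called higher. Dele1 overlaps an antisense gene.

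Most genes for the substrate complexes rose. Of 8 subunits of eIF2 and of its exchange factor eIF2B, 7 rose and 1 fell, with a median log2 fold change of 0.23, while 32.5% of all genes tested were called higher. The number called higher was 6 with DESeq2 or limma-voom. It was 5 with upper-quartile scaling, library totals only or no count filter, and without any one control library or BMP-inhibited replicate 3. Eif2s2, the β subunit of eIF2, had 970.0 ± 25.6 CPM in BMP-inhibited cells and 590.4 ± 23.9 CPM in controls (SD, n = 3 each), rising by 0.72 in log2 (SE 0.04). Eif2s1, which encodes eIF2α itself, rose by 0.19 in log2 (SE 0.04). The eIF2B genes Eif2b2 and Eif2b5 rose by 0.51 in log2 (SE 0.06) and 0.34 (SE 0.04), and Eif2b3 had a log2 fold change of -0.19 (SE 0.06). Without control replicate 1, 0 of the 8 were called lower in edgeR's test.

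Of the phosphatase subunits, the stress-inducible gene fell and the constitutive gene did not pass. Ppp1r15a (ENSMUSG00000040435, chr7:45522916-45526268, minus strand), for GADD34, had 72.7, 72.3 and 72.8 CPM in BMP-inhibited libraries, against 98.5, 101 and 98.2 CPM in controls. The libraries of each group lay close together and the groups far apart. Ppp1r15a fell by 26.9% (log2 fold change -0.45, SE 0.04, adjusted p = 3.19e-07). Ppp1r15b (ENSMUSG00000046062, chr1:133131143-133139783, plus strand), for CReP, had 237, 220.3 and 214 CPM in BMP-inhibited libraries, against 223, 216 and 221 CPM in controls. The groups overlapped, and the log2 fold change of 0.02 had a 95% interval of -0.07 to 0.12 (adjusted p = 0.645). Its sign changed without BMP-inhibited replicate 1 and when libraries were scaled by their totals alone. The log2 ratio of Ppp1r15a to Ppp1r15b per kb of exon was -0.69 ± 0.07 in BMP-inhibited cells and -0.22 ± 0.05 in controls, with an exact permutation p of 0.1. The catalytic subunits that both proteins recruit had log2 fold changes of -0.07 (Ppp1ca), -0.07 (Ppp1cb) and -0.05 (Ppp1cc), a median of -0.07, and edgeR's test called 0 of the 3, as did DESeq2, limma-voom and edgeR at an unadjusted p under 0.05. Without control replicate 2 or BMP-inhibited replicate 3, 1 of them was called lower, and with library totals only all 3 were.

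The order of the 10 genes by level was much alike in both groups. On the scale of CPM per kb of exon, Ppp1r15b was highest in both groups, at 38.3 to 42.3 in BMP-inhibited libraries and 38.6 to 39.8 in controls. Ern1 was lowest, at 2.02 ± 0.216 in BMP-inhibited cells and 1.45 ± 0.0477 in controls (SD, n = 3 each). Ppp1r15a and Atf6b followed Ppp1r15b in both. Controls had Xbp1 at 24.1 ± 0.419, above Eif2ak1 at 12.3 ± 0.328, whereas in BMP-inhibited cells Xbp1, at 15.7 ± 0.744, and Eif2ak1, at 16.1 ± 0.269, overlapped. Atf6, at 8.34 ± 0.777, and Eif2ak3, at 7.94 ± 0.263, also overlapped in BMP-inhibited cells. In BMP-inhibited cells Eif2ak4, at 6.84 ± 0.477, stood below both, whereas in controls it stood above both, at 8.57 ± 0.126. All other neighbours in either order had separate ranges. Exon lengths pool every annotated transcript, so a gene with long, little-used exons is placed too low.

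**Figure D4:**
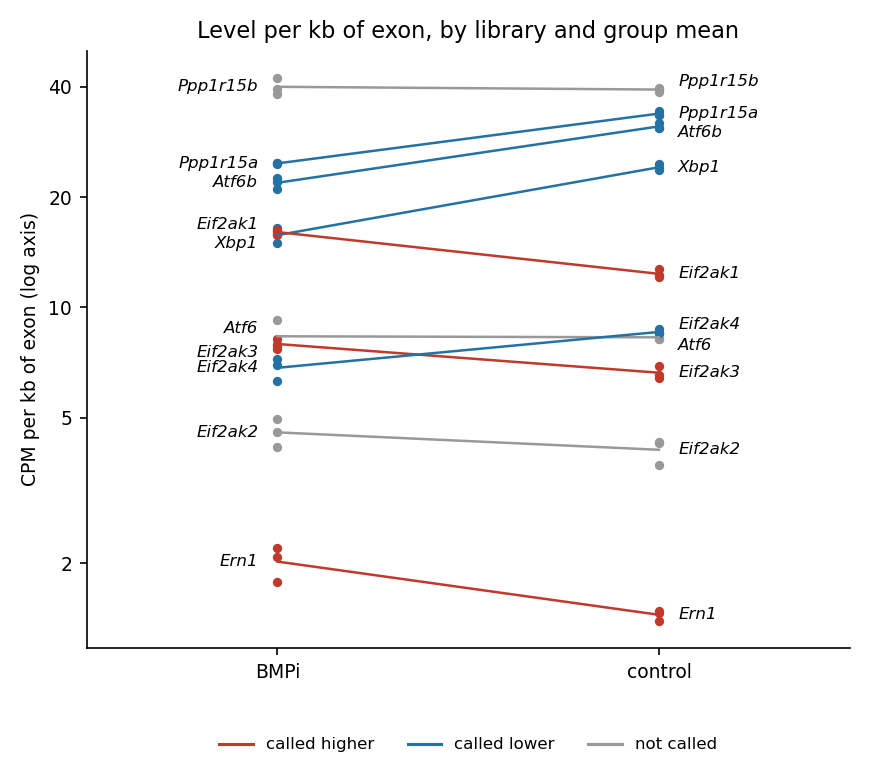
Level of the 10 genes in CPM per kb of exon on a log axis, with points for the libraries and lines joining the group means; red, blue and grey mark genes called higher, called lower and not called in BMP-inhibited cells. The lines of Xbp1 and Eif2ak1 meet in BMP-inhibited cells, at 15.7 and 16.1, and lie at 24.1 and 12.3 in controls.

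Most transcripts read out from these sensors fell, many by more than the sensors' own mRNAs. Of 24 genes activated by XBP1 or ATF6, 20 fell, 1 rose and 3 did not pass. The list had a median log2 fold change of -1.01, and 12 genes were called at least 2-fold lower. By comparison, 31.7% of all genes tested were called lower, and 7.47% were called lower and 8.02% higher by at least 2-fold. This list and that of ATF4 and CHOP targets were written with earlier results of these data known, so their direction is no independent evidence. Pdia4, a disulfide isomerase gene, had 162, 184 and 189 CPM in BMP-inhibited libraries, against 539.6, 533 and 544 CPM in controls (log2 fold change -1.59, SE 0.05). Hspa5, the gene for the chaperone BiP that holds the sensors inactive, had 489.8 ± 6.44 CPM in BMP-inhibited cells and 1323 ± 43.6 CPM in controls (log2 fold change -1.43, SE 0.04). Derl3, an inducible gene for disposal of misfolded proteins, had 7.40 ± 1.23 CPM in BMP-inhibited cells and 152 ± 1.69 CPM in controls. The 12 genes that fell at least 2-fold also include Creld2, Hsp90b1, Manf, Hyou1 and Dnajc3. Groups did not overlap for any of the 12, which follows largely from choosing genes by a large fall. The same held for 68.6% of all genes tested. Herpud1 and Sdf2l1, of protein quality control, had log2 fold changes of -1.56 (SE 0.06) and -1.78 (SE 0.08). Sel1l and Syvn1, the core of the ubiquitin ligase for misfolded proteins, had log2 fold changes of -1.14 (SE 0.05) and -1.09 (SE 0.05). Sec61b, of the translocon, rose by 0.32 in log2 (SE 0.06). Derl1, Derl2 and Sec24d, at 0.03, -0.04 and -0.04, did not pass.

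The element these factors bind was common in that list. ERSE occurred in the promoters of 9 of the 21 listed genes with a promoter in the table, against 0.119% of all promoters, and ERSE-II in 2. The list was chosen as targets of these factors, so a high share could be foreseen and is no independent evidence. Lists were counted by gene, and the share of all promoters by promoter entry. Of the 9, Canx changed least, with a log2 fold change of -0.11 (SE 0.04), and Derl3 most, with -4.36 (SE 0.08). The sites are shown 5′ to 3′ on the strand that reads CCAAT, with the defined letters in capitals, to compare the spacers of genes that fell by such different amounts.
Derl3: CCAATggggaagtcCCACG
Creld2: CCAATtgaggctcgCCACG
Dnajc3: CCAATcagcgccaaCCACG
Hsp90b1, site nearer the start: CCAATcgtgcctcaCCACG
Hsp90b1, farther site: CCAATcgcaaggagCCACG
Hspa5: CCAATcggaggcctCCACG
Syvn1: CCAATcggcggtagCCACG
Calr: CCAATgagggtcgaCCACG
Pdia6: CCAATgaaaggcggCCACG
Canx: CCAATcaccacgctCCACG
On GRCm38.p6, sites on the minus strand are those of Derl3 (chr10:75893242-75893260), Creld2 (chr15:88819520-88819538), Canx (chr11:50325800-50325818) and the farther one of Hsp90b1 (chr10:86705638-86705656). On the plus strand are those of Dnajc3 (chr14:118937827-118937845), Hspa5 (chr2:34772025-34772043), Syvn1 (chr19:6046532-6046550), Calr (chr8:84847075-84847093), Pdia6 (chr12:17266491-17266509) and the nearer one of Hsp90b1 (chr10:86705533-86705551). The Xbp1 promoter window held none of the motifs searched, and neither did those of Ern1, Atf6b, Eif2ak1, Eif2ak3 and Eif2ak4, which says only that these letters are not in those windows.

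Most targets of the kinase branch fell as well. Of 22 genes listed for ATF4 and CHOP, which include their own genes Atf4 and Ddit3, 21 fell, and the level of 10 was at least 2-fold lower. Over all genes tested, 31.7% were called lower, and 7.47% lower by at least 2-fold. The list had a median log2 fold change of -0.87, and 0 rose in edgeR's test, also at an unadjusted p under 0.05 and with DESeq2 and limma-voom. Trib3, a pseudokinase gene that restrains ATF4, had 62.7, 86.1 and 71.8 CPM in BMP-inhibited libraries, against 209, 203 and 204 CPM in controls (log2 fold change -1.48, SE 0.08). Chac1, a glutathione-degrading enzyme gene, was highest in BMP-inhibited replicate 2, at 17.1, 32.0 and 19.9 CPM in the BMP-inhibited libraries, against 76.2, 79.5 and 76.7 CPM in controls. Groups did not overlap for either gene, as for 68.6% of all genes tested. The log2 fold change of Chac1 was -1.75 (SE 0.14), and those of Vldlr and Slc7a11, a lipoprotein receptor and a cystine transporter gene, were -1.84 (SE 0.10) and -2.39 (SE 0.22). Ddit3, the gene for CHOP, had 23.5 ± 4.07 CPM in BMP-inhibited cells and 91.9 ± 0.407 CPM in controls (log2 fold change -1.97, SE 0.09). Stc2, Nupr1, Cebpb, Atf5 and Pck2 had log2 fold changes of -2.14, -1.82, -1.70, -1.66 and -1.57. Atf4 itself, which is controlled largely by translation, had 443 ± 24.3 CPM in BMP-inhibited cells and 579 ± 2.69 CPM in controls, a log2 fold change of -0.38 (SE 0.04). Atf3, at 9.58 ± 1.23 CPM in BMP-inhibited cells and 9.52 ± 0.848 CPM in controls, did not pass. The C/EBP-ATF element occurred in the promoters of 8 of 20 listed genes, against 3.95% of all promoters. This list too was chosen by its factors, so the share is no independent evidence.

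**Figure D5:**
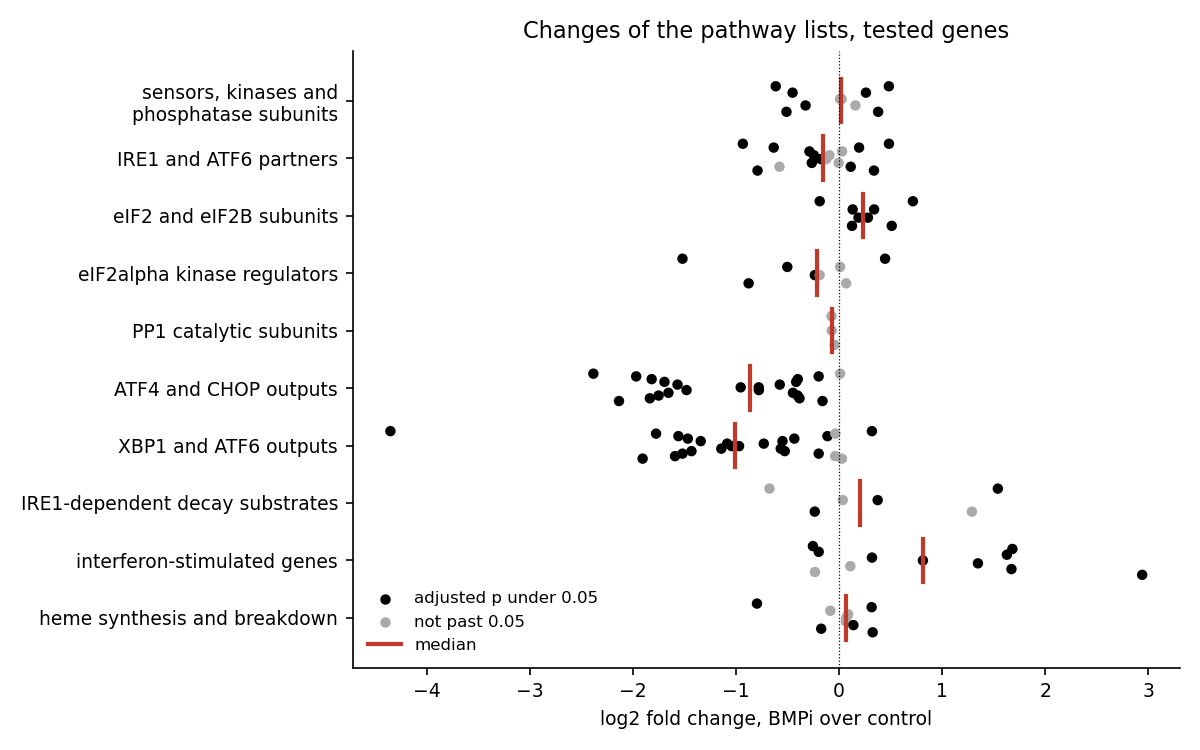
Log2 fold change, BMP-inhibited over control, of the tested genes in each pathway list, with black points past an adjusted p of 0.05, grey points not past it and red bars at the medians. The 10 sensors, kinases and phosphatase subunits lie on both sides of 0, while the outputs of XBP1 and ATF6 (median -1.01) and of ATF4 and CHOP (median -0.87) lie mostly to the left.

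Conditions that the kinases sense outside the endoplasmic reticulum were looked at through gene lists. PKR is itself made in response to interferon, and 11 of 16 interferon-stimulated genes passed the count filter. Rsad2, Oasl2 and Irf7, with 4 to 12 counts in each control library, passed through the BMP-inhibited libraries alone, so that they could hardly be called other than higher and are not counted here. Of the other 8 tested genes, 4 were called higher (Bst2, Ddx58, Dhx58 and Zbp1) and 2 lower (Stat2 and Adar). Over all genes tested, 32.5% were called higher and 31.7% lower. Bst2, a membrane restriction factor gene, rose by 0.81 in log2 (SE 0.06) to 111 ± 9.76 CPM in BMP-inhibited cells, against 62.9 ± 4.17 CPM in controls. Zbp1 and Dhx58, a nucleic acid sensor and an RNA helicase gene, rose by 1.35 (SE 0.17) and 1.67 (SE 0.27) in log2, where controls averaged 2.46 and 0.675 CPM. Rsad2, an antiviral enzyme gene, had 2.07, 0.546 and 1.401 CPM in BMP-inhibited libraries, all above the 0.110 to 0.234 CPM of controls. The 5 genes that did not pass, Isg15, Ifit1, Ifit3, Usp18 and Ifih1, averaged at most 0.188 CPM in BMP-inhibited cells and at most 0.0293 CPM in controls. The interferon core shown for Eif2ak2 occurred in 8 of 12 listed genes with a promoter, against the 3.44% of all promoters. These genes were chosen as interferon-stimulated, so a high share could be foreseen and is no independent evidence.

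Heme genes, set beside HRI, gave 3 higher and 2 lower of 9, with a median log2 fold change of 0.07. The share called over all genes tested was 64.2%. Alas1, the rate-limiting enzyme of heme synthesis outside erythroid cells, rose by 0.33 in log2 (SE 0.06), and Cpox, a later step, by 0.32 (SE 0.06). Ppox, also of synthesis, had a log2 fold change of -0.80 (SE 0.06), and Hmox1, which breaks heme down, rose by 0.14 in log2 (SE 0.05). Without control replicate 1, 1 gene was called lower.

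The genes whose pattern over the 6 libraries lay nearest to Xbp1 were Cbx6, Zfp599 and Mob3c, at Euclidean distances of 0.0561, 0.0648 and 0.0720 in centred log2 CPM. Nearest to Atf6b, the called gene with the next largest change and added after the values were seen, were Zfp746, Ildr1 and Pafah1b3, at 0.0293, 0.0369 and 0.0435. These were the closest of 10646 genes compared. With libraries in 2 groups, such nearness mostly reflects a like difference between the groups.

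Several counts carry an annotation limit. Exons of Eif2ak1 overlap those of the antisense gene Aimp2 over 487 bases (8.59% of its exon length), and Aimp2 rose by 0.34 in log2 (SE 0.06), close to the 0.38 of Eif2ak1. The part of the shared bases in the Eif2ak1 count was not tested. Antisense genes overlapping Eif2ak2, Eif2ak3 and Ppp1r15b by 174, 485 and 640 bases had under 1 CPM in both groups, and Tulp2 shares 12 bases with Ppp1r15a. No other annotated transcript matched at least 50% of the longest transcript of any of the 10 genes at 90% identity or more. Among other listed genes named above, Rtcb, Dele1, Ppp1ca, Atf5, Cebpb, Pck2, Pdia6, Syvn1, Derl2, Dhx58, Alas1, Cpox and Ppox overlap antisense exons. So do Adar (1365 bases), Irf7 and Usp18. Ppp1cb, Pdia4 and Bloc1s1 overlap genes on the same strand, and Ddit3, Hsp90b1 and Manf overlap both kinds. The library kit marks strand, but whether the counting used it is not given in the sources used here.

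Libraries held 31474666 to 35322844 gene counts. Across genes, log2 CPM of BMP-inhibited replicate 2 correlated with that of each control library at r = 0.959, while the other BMP-inhibited libraries gave 0.952 to 0.953. The stem cell markers Pou5f1, Sox2, Nanog, Zfp42 and Esrrb summed to 2757 to 2915 CPM in BMP-inhibited libraries and 3256 to 3375 CPM in controls. Sox2, Nanog and Esrrb were called lower, while Pou5f1 and Zfp42, with log2 fold changes of 0.10 and -0.03, did not pass. Trophectoderm markers summed to 161 to 222 CPM in BMP-inhibited libraries and 31.7 to 34.5 CPM in controls, with 4 of 6 tested, all called higher, and Cdx2 and Elf5 under 1 CPM. Of these 4, Hand1, with a mean of 0.0959 CPM in controls, passed the filter through the BMP-inhibited libraries alone. Markers of the 2-cell-like state, a rare state resembling the cleavage embryo, summed to 18.7 to 28.0 CPM in BMP-inhibited libraries and 0 to 0.0878 CPM in controls, with all 6 genes at 0 to 2 counts in each control library. These 6 passed the count filter through the BMP-inhibited libraries alone, so that no call of lower was possible, and members of the Zscan4, Tcstv and Dux families share near-identical copies and their split is uncertain. Primitive endoderm markers summed to 19.9 to 23.3 CPM in BMP-inhibited libraries and 30.5 to 32.5 CPM in controls, with 2 of 6 higher and 2 lower. Fibroblast markers summed to 8.09 to 8.80 CPM in BMP-inhibited libraries and 5.53 to 6.88 CPM in controls, with 2 of 6 tested. Of these, Col1a1 was called higher and Thy1 did not pass. Of the untested ones, Col3a1 had 8, 9 and 7 counts in BMP-inhibited libraries and 0 in controls, Col1a2 had 6, 8 and 6 counts in BMP-inhibited libraries and 2 in each control, and Dcn and Lum had at most 1 count. The part of these cell states in the changes above was not tested.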

How the data were processed

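Messenger RNA of 6 libraries was sequenced after a stranded polyA preparation, per the labels. The authors deposited gene counts without normalization, 1 file a library. Build GRCm38.p6 and the tools HTSeq 0.9.1, DESeq2, CASAVA 1.8.2, STAR 2.6.1 and cutadapt 1.4.2 stand in the submitters' processing notes without a role. Annotation release and strand setting are not given in the sources used here. Rows that name no gene held 25.6% to 26.4% of all counts in a library's table and were left out.

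The counts were tested with edgeR 4.0.16 in R 4.3.3 (TMM scaling, default filter with a minimum count of 10, quasi-likelihood F test, Benjamini-Hochberg adjustment over 15951 genes, threshold 0.05). The edgeR code was tested on simulated data. Intervals are 95%. CPM are TMM-scaled, and CPM per kb divide by the union of annotated exons. GENCODE M21 on GRCm38 gave names for 53360 of 53465 gene IDs, exons and overlaps. Similar transcripts were sought with BLAST 2.17.0. Alternatives were DESeq2 1.42.0, limma-voom (limma 3.58.1), other scalings and filters, a replicate block, and each library left out.

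Genes, lists and tests were chosen with earlier results of these data known. From each list the text names up to 4 genes with the smallest p, all outputs called at least 2-fold, and, chosen after their values were seen, Rtcb, Bloc1s1, Dele1, Eif2s1, Eif2b3, Hmox1, Atf4, Atf3, Canx, Sec61b and the outputs that did not pass. The values of 1 gene that this rule names in the heme list are not reported here.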

Additional observations from a re-analysis of the deposited data

How the results depend on the processing

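Across 14 alternatives, the 7 called genes kept their direction and stayed past the threshold. Their log2 fold changes ran from 0.42 to 0.57 for Ern1, -0.57 to -0.48 for Atf6b, -0.67 to -0.58 for Xbp1, 0.32 to 0.39 for Eif2ak1, 0.20 to 0.29 for Eif2ak3, -0.38 to -0.27 for Eif2ak4 and -0.51 to -0.45 for Ppp1r15a. Atf6 changed sign to -0.0072 with upper-quartile scaling and -0.0499 with library totals only, and ran from -0.0678 to 0.0565 as each library was left out. Ppp1r15b changed sign to -0.0339 with library totals only and ran from -0.0150 to 0.0578 with a library left out. Eif2ak2 ran from 0.0886 to 0.221 with a library left out. The difference in the share of Eif2ak2 among the kinases, -0.03 percentage points, was 0.212 with plain counts and ran from -0.489 to 0.538 with a library left out. Library totals only moved the median of all genes by -0.06, and gave 3 of 3 catalytic phosphatase subunits lower. The stricter filter (at least 50 counts) left 1 decay substrate and 4 interferon-stimulated genes called higher, in place of 2 and 7, because fewer genes were tested. The 7 include Rsad2, Oasl2 and Irf7, which the count of 4 in the Results leaves out. Elsewhere the cause was not tested.

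With a library left out, the partners of IRE1 and ATF6 called higher ran from 2 to 4 and those called lower from 5 to 8. Subunits of eIF2 and eIF2B ran from 5 to 7 higher and from 0 to 1 lower. Kinase regulators called higher ran from 1 to 2, and catalytic phosphatase subunits called lower from 0 to 1. Decay substrates ran from 2 to 3 higher and from 1 to 2 lower. Heme genes ran from 2 to 3 higher and from 1 to 3 lower. Outputs of XBP1 and ATF6 called lower ran from 18 to 20, and those of ATF4 and CHOP stayed at 21. Each of the 10 genes had at least 378 counts in every library, whereas several interferon genes rested on few.

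Whether the replicate numbers pair the samples is not stated. Same-numbered libraries had deviation correlations of -0.0863, -0.00149 and 0.0574, and other pairs ran from -0.114 to 0.0974. With 3 libraries a group, such values cannot settle the question. With the replicate number as a block, 5149 genes were higher and 5061 lower, Xbp1 stood at -0.62, and no call among the 10 genes changed.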
